A study of Mus musculus with 4 samples.

Results

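The 8 genes described here encode subunits and cofactors of Polycomb repressive complex 2 (PRC2): Ezh2, Ezh1, Suz12, Eed, Rbbp4, Jarid2, Mtf2 and Phf19. They were chosen by name from textbook membership of the complex, not by any measured value, though with earlier results of these data known. They are 8 of the 22367 protein-coding genes of the GENCODE vM1 annotation. For each gene, reads were counted in every library from 1 kb before to 1 kb after the 5′-most annotated start, its gene-level transcription start site (TSS). The samples were chromatin immunoprecipitation sequencing (ChIP-seq) libraries of E14TG2a.4 cells, mouse embryonic stem cells kept without feeders on gelatin in serum with LIF. There was 1 library made with an antibody to H3K4me3 (histone H3 trimethylated at lysine 4) from cells that a lentivirus had given a short hairpin RNA (shRNA) against Jarid1b, here called the knockdown library, and 1 from cells given a scrambled LKO hairpin, here called the scramble library. A further 2 libraries were made with an antibody to Jarid1b itself and are labelled as E14 cells. The transduced cells were selected with puromycin. The sources used here do not give the number of hairpins or how far they lowered Jarid1b.

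PRC2 places methyl groups on lysine 27 of histone H3, the mark of Polycomb-silenced promoters. Its catalytic subunit is Ezh2 or the related Ezh1, which works only together with Suz12 and Eed, while Rbbp4 is a histone-binding subunit shared with other chromatin complexes. Jarid2, Mtf2 and Phf19 are accessory subunits that help bring the complex to CpG-rich DNA, and in embryonic stem cells many promoters of developmental regulators carry the PRC2 mark together with H3K4me3. Jarid1b, the product of Kdm5b, is a demethylase that removes methyl groups from H3K4. Jarid2 belongs by sequence to the same JmjC family but is not known to be an active demethylase.

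The sequences around the start sites show what kind of promoter the ChIP reads fell on. They run from 250 bases before to 50 bases after the start, read from the NCBIM37 (mm9) genome on the strand of the gene, and the capitals mark E2F-type letters (TTTCCCGC, TTTCGCGC, TTTGCCGC or TTTGGCGC) and CCAAT boxes (ATTGG), each searched on both strands. Suz12 at chr11:79806358-79806657 (plus strand) and Phf19 at chr2:34769497-34769796 (minus strand) are shown because they are the 2 of 8 genes with E2F-type letters. Jarid2 is shown at its gene-level start, chr13:44824593-44824892 (plus strand), and at a second annotated start 1300 bases downstream, chr13:44825893-44826192, because its H3K4me3 lay towards the second start.
Suz12: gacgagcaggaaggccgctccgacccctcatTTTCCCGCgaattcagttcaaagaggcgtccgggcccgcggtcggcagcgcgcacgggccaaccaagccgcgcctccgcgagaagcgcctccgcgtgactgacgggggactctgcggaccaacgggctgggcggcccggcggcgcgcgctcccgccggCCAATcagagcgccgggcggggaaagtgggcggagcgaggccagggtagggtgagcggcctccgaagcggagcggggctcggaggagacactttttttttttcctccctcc
Phf19: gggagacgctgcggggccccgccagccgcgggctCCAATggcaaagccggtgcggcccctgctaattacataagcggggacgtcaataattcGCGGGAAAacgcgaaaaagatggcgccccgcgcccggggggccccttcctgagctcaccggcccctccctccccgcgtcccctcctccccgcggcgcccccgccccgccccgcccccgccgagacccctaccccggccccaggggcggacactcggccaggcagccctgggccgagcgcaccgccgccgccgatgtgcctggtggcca
Jarid2, gene-level start: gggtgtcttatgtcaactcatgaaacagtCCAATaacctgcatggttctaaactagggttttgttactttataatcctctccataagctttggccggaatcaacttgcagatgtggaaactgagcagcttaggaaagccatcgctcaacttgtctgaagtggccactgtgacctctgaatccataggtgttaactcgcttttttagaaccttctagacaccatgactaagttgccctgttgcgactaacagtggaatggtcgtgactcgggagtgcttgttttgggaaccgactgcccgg
Jarid2, second start: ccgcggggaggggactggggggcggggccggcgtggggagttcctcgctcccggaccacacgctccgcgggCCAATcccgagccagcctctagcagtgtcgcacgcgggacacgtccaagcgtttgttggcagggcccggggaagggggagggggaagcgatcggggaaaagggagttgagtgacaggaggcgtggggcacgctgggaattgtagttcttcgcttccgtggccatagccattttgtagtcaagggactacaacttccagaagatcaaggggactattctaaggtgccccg
The E2F-type letters began 219 bases upstream of the start in Suz12 and 158 bases upstream in Phf19. Among 22362 promoters of the same length 2.72% held such letters. CCAAT boxes were found in 5 of the 8 windows (Suz12, Eed, Rbbp4, Jarid2 and Phf19), against 37.9% of all promoters. ETS-type letters (CCGGAAG) and NRF1-type letters were in none of the 8, against 10.8% and 1.19% of all promoters. The GC content of the 8 windows of 300 bases ranged from 46.3% at the gene-level start of Jarid2 to 75.7% at Phf19, with a median of 63.5% where all promoters had 55%. The ratio of observed to expected CpG had a median of 0.885 in the 8 genes and 0.534 in all promoters, was 1.09 at Suz12 and 1.12 at Rbbp4, and was lowest, 0.497, at the gene-level start of Jarid2. The second start of Jarid2 had 64.3% GC and a CpG ratio of 0.810. GC content was 40.3% in the 1 kb before the gene-level start of Jarid2 and 68.7% in the 1 kb after it. The annotated 5′-most start of this gene thus lies at the upstream edge of its GC-rich sequence.

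After 1 read was kept per position and strand, the knockdown library held 2635705 reads, the scramble library 5158330, and the 2 Jarid1b libraries 4336767 and 1602370. The Jarid1b libraries shared single fragments (16.8% of plus-strand positions of library 2 stood at the same base in library 1), so they count as a single sample (n = 1), and passing in both says nothing of a second culture. Each H3K4me3 condition had 1 library too. No test between conditions was possible, intervals cover counting error only, and a difference here is a difference between 2 libraries. A lower signal can come from fewer cells with the mark or from less of it per cell, which cannot be told apart in bulk chromatin. Of 8 stem cell marker promoters, 6 carried H3K4me3 in the knockdown and 7 in the scramble library, including Pou5f1, Sox2 and Nanog in both, while Esrrb had 0 knockdown and 3 scramble reads at its gene-level start. The summed level of these 8 was 223 RPM (reads scaled to the library's total of reads kept) in the knockdown library and 299.5 RPM in the scramble library, and 4 of 7 compared were called lower by the rule given below, where 2.37% of all promoters were (5 of 7 with median scaling). Of the neural markers 2 of 3 compared were called higher and of the endoderm markers 2 of 2, where 24% of all promoters were (0 and 1 with median scaling). The neural markers summed to 48.9 RPM in the knockdown and 24.4 RPM in the scramble library, and the endoderm markers to 17.1 and 7.75 RPM. The 6 fibroblast markers summed to 14.8 and 6.79 RPM and the 3 blood markers found to 6.83 and 7.75 RPM in the same order of libraries, with the most in Thy1 (19 knockdown and 19 scramble reads) and Cd34 (17 and 34). Dcn, Lum, Hbb-b1 and Ptprc had 4 reads or fewer in either. The part of these differences in the results below was not tested. The Kdm5b promoter had 155 knockdown and 153 scramble reads, a log2 ratio of 0.99 (0.66 to 1.32). Its H3K4me3 says nothing of how well the hairpin worked, since the hairpin acts on the transcript.

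All 8 PRC2 promoters carried H3K4me3 in both libraries, where 58% of all promoters did. The knockdown library alone had 59.9% and the scramble library 60% of all promoters enriched. Enrichment was called by an exact one-sided Poisson test of the window's reads, with Benjamini-Hochberg adjustment over all promoters. The expected reads came from the genome rate or, where higher, from the rate in 10 kb beyond either edge. The weakest knockdown call among the 8 was at Mtf2 (58 reads, 4.36-fold over the expected reads, 3.31 to 5.64, exact Poisson test, adjusted p = 3.07e-19), and the weakest scramble call at Jarid2 (100 reads, 1.90-fold, 1.55 to 2.32, adjusted p = 6.96e-09). The expected reads at Jarid2, 20.2 in the knockdown and 52.5 in the scramble library, were the highest of the 8 because its own H3K4me3 reaches into the 10 kb that set the local rate.

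In the knockdown library the highest level was at Ezh2 with 45.1 RPM (95% Poisson interval 37.4 to 54.0), followed by Jarid2 with 43.6, Rbbp4 with 42.9, Suz12 with 38.3, Eed with 32.2, Mtf2 with 22.0, Ezh1 with 16.3 and Phf19 with 15.2 RPM. In the scramble library the order was Eed with 56.0 RPM (49.8 to 62.9), Rbbp4 with 50.2, Mtf2 with 39.7, Suz12 with 32.0, Ezh2 with 25.6, Jarid2 with 19.4, Ezh1 with 10.1 and Phf19 with 6.98 RPM. Neighbours in these orders had overlapping intervals, except Jarid2 (15.8 to 23.6) above Ezh1 (7.53 to 13.2) in the scramble library. The levels spanned 2.98-fold in the knockdown and 8.03-fold in the scramble library. Ezh1 and Phf19 were lowest in both libraries, while Ezh2 and Jarid2 stood at the top in the knockdown library and in the fifth and sixth place in the scramble library. For scale, the median of the 13273 promoters compared between the libraries was 23.9 RPM in the knockdown and 17.8 RPM in the scramble library, and Ezh2 stood at the 92.5 and 81.4 percentile of all promoters.

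**Figure D1:**
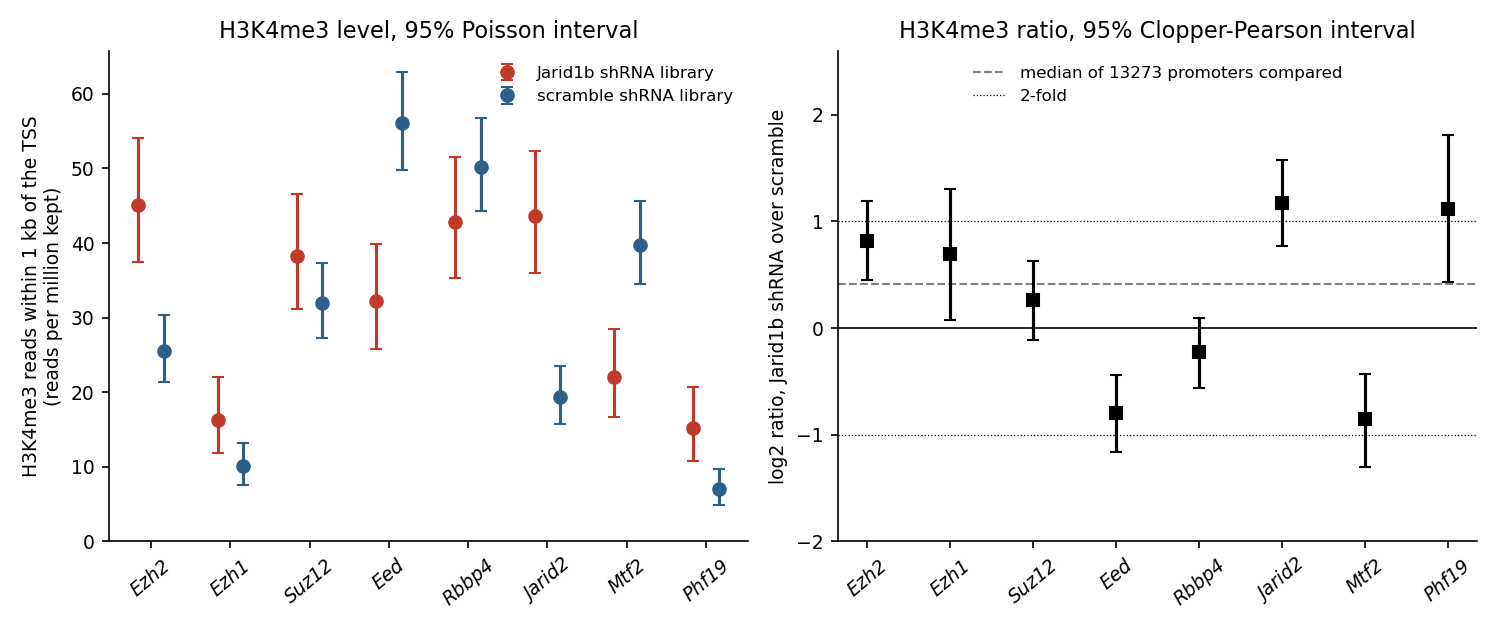
H3K4me3 at the 8 PRC2 promoters. Left, RPM within 1 kb of the TSS in the knockdown (red) and scramble (blue) library, 1 library each, with 95% Poisson intervals. Right, log2 ratio of knockdown over scramble with 95% Clopper-Pearson intervals, the median of all 13273 promoters compared (dashed, 0.41) and the 2-fold lines (dotted). The points of Ezh2, Ezh1, Jarid2 and Phf19 lie above the dashed line, those of Eed and Mtf2 near the lower dotted line.

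The ratio between the libraries asks whether the cells with the Jarid1b hairpin carried more or less H3K4me3 at these promoters. To be called higher or lower, a promoter needed an RPM ratio of at least 2-fold in that direction and a 95% Clopper-Pearson interval of the log2 ratio that left out 0. Of the 8 promoters, 2 were called higher (Jarid2 and Phf19) and 0 lower, where 24% of all 13273 promoters compared were called higher and 2.37% lower. The median log2 ratio of the 8 was 0.48, beside 0.41 over all promoters compared, and 4 of the 8 stood above that median. With the libraries scaled so that the median of all promoters is 0, 0 of the 8 were called higher and 2 lower, beside 1594 higher and 1193 lower over all promoters where the main scaling gave 3184 and 315. With the main scaling the share called is near the background, and the 8 ratios spread from -0.85 to 1.17, a range of 2.02 where the 5th to 95th percentile of all promoters ran from -0.82 to 1.85. Of the 8 ratios 3 were below 0, beside 30.5% of all promoters. The values are given below by role.

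Ezh2, the main methyltransferase of stem cells, had 119 knockdown and 132 scramble reads, which is 45.1 against 25.6 RPM. The log2 ratio was 0.82 (0.45 to 1.19), or 1.76-fold, short of 2-fold. Ezh1, the second methyltransferase, which is known to be more abundant in differentiated than in dividing cells, had 43 knockdown and 52 scramble reads. Its RPM levels were 16.3 and 10.1, and its log2 ratio was 0.69 (0.08 to 1.31). Both catalytic genes had positive ratios with intervals that excluded 0, and neither was called. With median scaling Ezh2 stood at 0.41 (0.04 to 0.78) and Ezh1 at 0.29, with an interval from -0.33 to 0.896 that spans 0. With scaling to background bins Ezh2 was called higher at 1.06. Promoters with the GC content of the Ezh2 window (59.55%) had a median ratio of 0.93, which leaves Ezh2 0.11 below them. Those with the GC content of Ezh1 (51.8%) had a median of 0.14, which leaves Ezh1 0.56 above them.

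Suz12, the subunit around which the complex assembles, had 101 knockdown and 165 scramble reads. Its levels of 38.3 and 32.0 RPM gave a log2 ratio of 0.26 with an interval from -0.11 to 0.63 that spans 0. In a window of 500 bases on each side the ratio was 1.08 (0.501 to 1.66) and Suz12 was called higher. Eed, the subunit that binds trimethylated lysine 27, had 85 knockdown and 289 scramble reads, or 32.2 against 56.0 RPM. Its log2 ratio was -0.80 (-1.16 to -0.44), at the 5.32 percentile of all promoters compared. Rbbp4 had 113 knockdown and 259 scramble reads, 42.9 against 50.2 RPM and a log2 ratio of -0.23 (-0.56 to 0.10). The 3 core genes gave ratios on either side of 0, and the interval of Eed was clear of it. Relative to promoters of the same GC content all 3 were low, Suz12 by -0.91, Eed by -1.25 and Rbbp4 by -0.96 on the log2 scale. With the median of all promoters set to 0 instead, Eed stood at -1.21 and was called lower. Rbbp4 then stood at -0.64 (-0.97 to -0.31), and Suz12 turned to -0.15 (-0.52 to 0.22).

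The accessory genes held both ends of the range. Jarid2 had 115 knockdown and 100 scramble reads, 43.6 against 19.4 RPM, so that the shallower library held the larger number of reads. Its log2 ratio of 1.17 (0.77 to 1.57), or 2.25-fold, was called higher. Phf19, which carries a Tudor domain that binds methylated lysine 36 of histone H3, had 40 knockdown and 36 scramble reads and 15.2 against 6.98 RPM. Its log2 ratio of 1.12 (0.43 to 1.81), or 2.17-fold, was called higher as well. Mtf2, the related Polycomb-like protein with the same kind of domain, had 58 knockdown and 205 scramble reads, 22.0 against 39.7 RPM. Its log2 ratio was -0.85 (-1.30 to -0.43), at the 4.45 percentile of all promoters compared, and was not called. The intervals of Mtf2 and of Phf19 did not overlap. Both calls were lost with the median of all promoters set to 0, when Jarid2 stood at 0.76 and Phf19 at 0.71, and Mtf2 was then called lower at -1.26. Against promoters of the same GC content Phf19 (60.95% GC) differed by 0.08 and Mtf2 (48.9%) by -0.65, while Jarid2 (54.5%) stood 0.83 above. The 8 windows had GC contents from 48.9% to 62.4%. GC content moved with the ratio over all promoters. It also did so in background bins, which were enriched in neither H3K4me3 library. Unscaled, these held 0.145 knockdown and 0.447 scramble reads per kb in the lowest of 14 GC classes, and 3.77 and 3.43 in the highest. With background bins of the same GC content set to 0, Jarid2 stood at 0.80, Phf19 at 0.33 and Mtf2 at -0.86. Ezh2 then stood at 0.11, Ezh1 at 0.52, Suz12 at -0.53, Eed at -1.38 and Rbbp4 at -0.94. The part of GC content in these differences was not tested beyond the values given.

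Most H3K4me3 reads lay downstream of the start. At Ezh1 39 of its 43 knockdown reads and 50 of its 52 scramble reads did so. At Ezh2 these numbers were 100 of 119 and 93 of 132, at Suz12 88 of 101 and 130 of 165, at Eed 72 of 85 and 221 of 289, and at Mtf2 51 of 58 and 185 of 205. Phf19, with 26 of 40 and 27 of 36, had the smallest downstream share of knockdown reads, so that at all 8 genes most reads lay inside the gene. Enriched 1 kb bins at the start covered 4 kb at Eed, 3 kb at Rbbp4, 2 kb at Ezh2, Suz12 and Mtf2, and 1 kb at Ezh1 and Phf19, over both libraries together.

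The 1 kb before the start and the 1 kb after it gave different ratios at some genes. Downstream of the start Ezh2 had 100 knockdown and 93 scramble reads, a log2 ratio of 1.07 (0.65 to 1.497), and upstream 19 and 39 reads and a ratio of -0.07 (-0.94 to 0.76). Of the 8 genes, the intervals of the 2 sides were apart at Rbbp4 alone, which shares its promoter with Zbtb8os, a gene read in the opposite direction from a start 325 bases upstream. Upstream of the Rbbp4 start, on the Zbtb8os side, there were 14 knockdown and 99 scramble reads, a log2 ratio of -1.85 (-2.78 to -1.04). Downstream, in Rbbp4 itself, there were 99 knockdown and 160 scramble reads, a ratio of 0.28 (-0.10 to 0.65). The ratio near 0 over the whole Rbbp4 window thus joins 2 unlike sides. Over all promoters with enough reads the median was 0.12 upstream and 0.46 downstream, with a median difference of 0.29 within a promoter. The GC content of the Rbbp4 sides was 55.8% upstream and 60.8% downstream. Eed was low on both sides, at -1.42 (-2.40 to -0.55) upstream and -0.65 (-1.05 to -0.26) downstream, and so was Mtf2, at -0.55 (-2.03 to 0.75) and -0.89 (-1.37 to -0.44), though the upstream interval of Mtf2 spans 0.

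**Figure D2:**
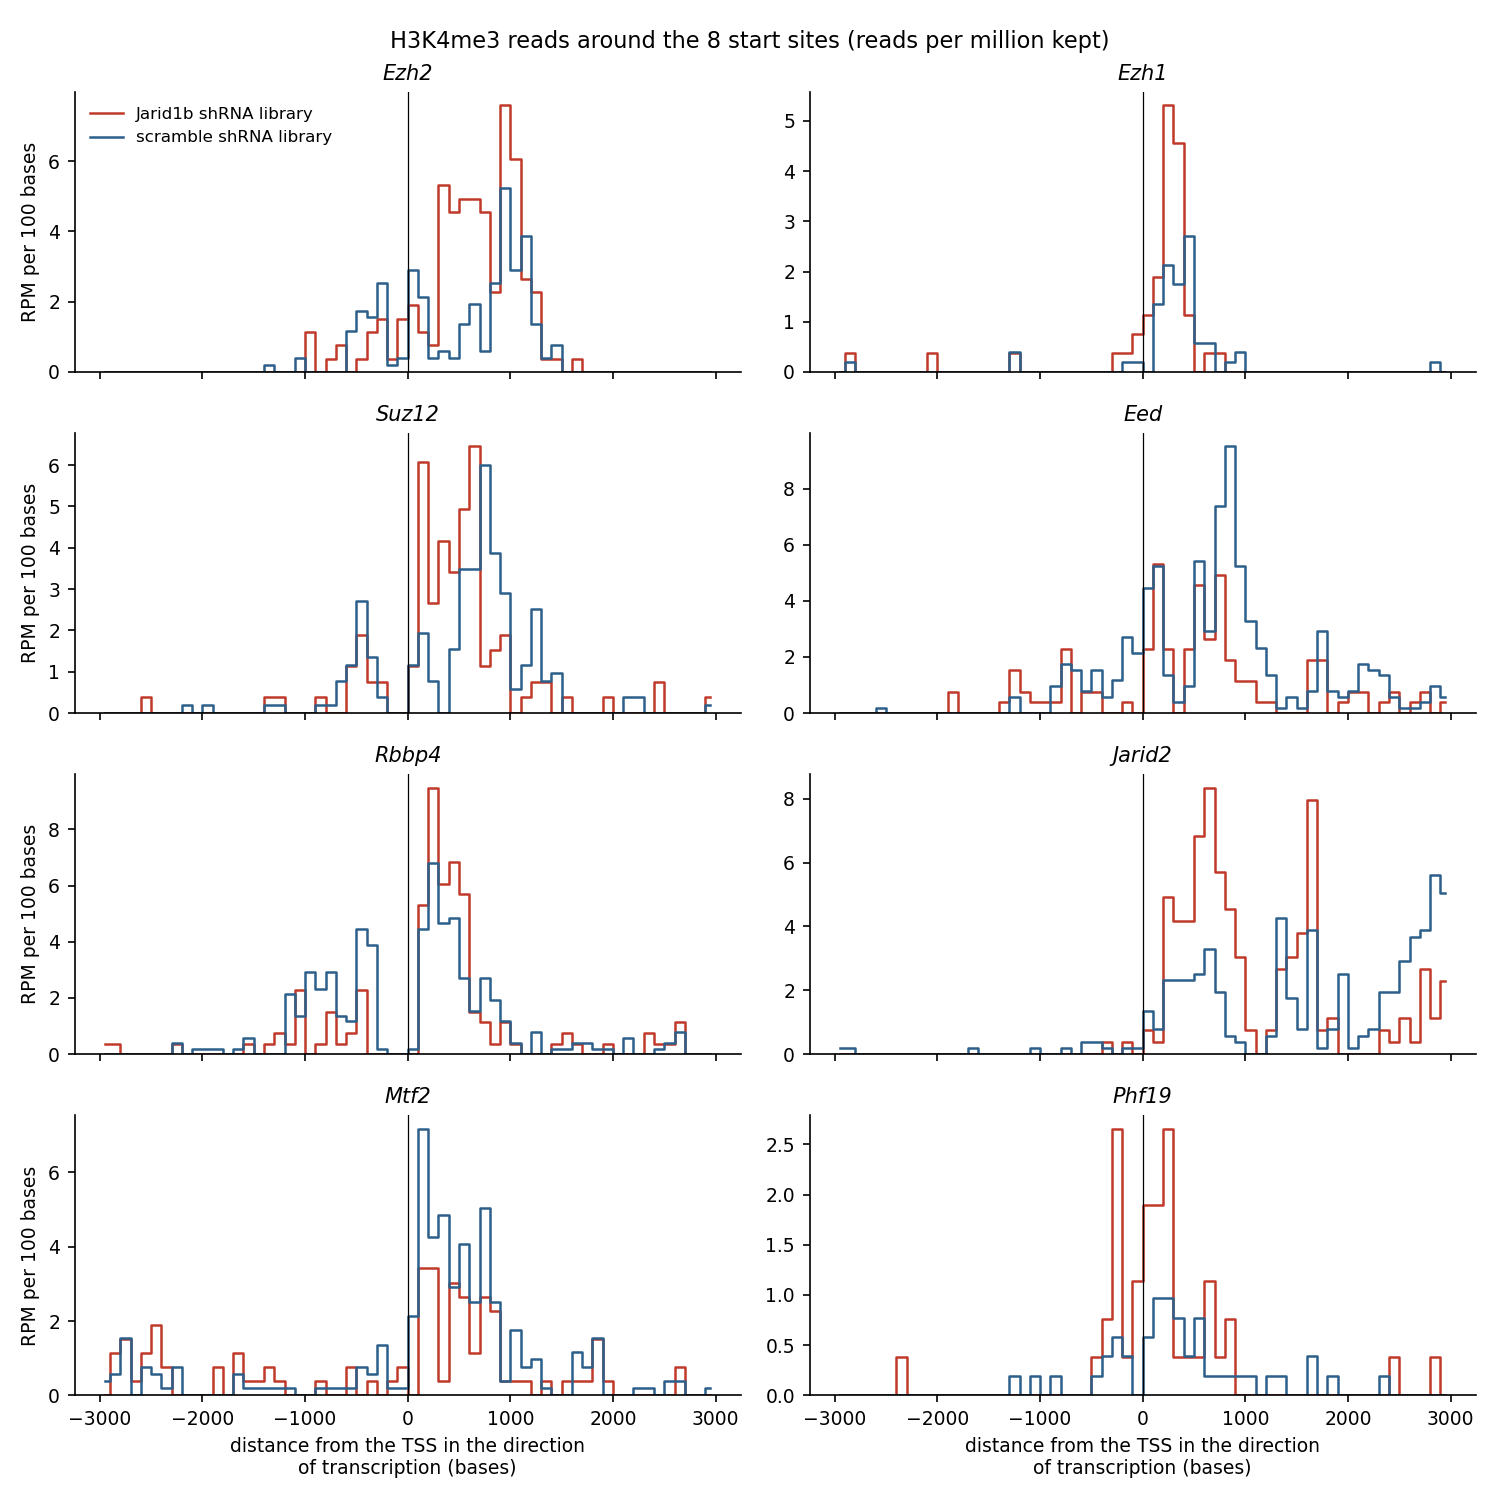
H3K4me3 in RPM by classes of 100 bases, within 3 kb before and after the start site (vertical line) of the 8 PRC2 genes, in the knockdown (red) and scramble (blue) library. Each panel has its own vertical scale. Summed over the 1 kb after the start the knockdown level is the higher one at Ezh2 and Jarid2 and the scramble level at Eed and Mtf2. Upstream of Rbbp4 and beyond 2 kb in Jarid2 the scramble level is the higher one.

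Jarid2 had the broadest domain and the value that most depended on where it was read. Its H3K4me3 began at the gene-level start and ran downstream over the second, CpG-rich start printed above. That second start is the first in a run of starts of 10 annotated transcripts, each within 1 kb of the one before. In the first 2 kb from the start the libraries held 168 knockdown and 168 scramble reads, a log2 ratio of 0.97 (0.65 to 1.29), in sequence of 66.55% GC. In the next 2 kb they held 57 knockdown and 282 scramble reads, a ratio of -1.34 (-1.77 to -0.92), in sequence of 41.5% GC. From 4 to 6 kb there were 63 knockdown and 121 scramble reads, a ratio of 0.03 (-0.44 to 0.48), in sequence of 52.15% GC. The ratios of the first pair of segments lay on opposite sides of 0 with intervals far apart. Background bins of the GC class that takes in 66.55% held 3.77 knockdown and 3.43 scramble reads per kb, unscaled. Those of the class that takes in 41.5% held 0.455 and 1.17. The part of GC content in the change of sign was not tested. Enriched 1 kb bins in an unbroken run at the start covered 2 kb in the knockdown and 5 kb in the scramble library. Bins beyond a gap were not counted. The window around a start 4566 bases downstream still held 87 knockdown and 214 scramble reads, 3.67-fold and 5.05-fold over the expected reads. The scramble library also held more reads in all, which makes its bins easier to call, so the 2 widths are not a measure of a narrower domain. Over the whole region of 5 kb there were 275 knockdown and 546 scramble reads, a log2 ratio of -0.021 (-0.24 to 0.19). The window around the second start alone gave 152 knockdown and 153 scramble reads, a ratio of 0.96 (0.63 to 1.29), short of 2-fold, and a window of 500 bases on each side of the gene-level start gave 0.59. The call of Jarid2 as higher therefore held for the window of 1 kb on either side of its gene-level start and not for the domain as a whole. A start 111217 bases downstream, inside the gene, held 9 knockdown and 18 scramble reads, a ratio of -0.03 (-1.37 to 1.198).

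**Figure D3:**
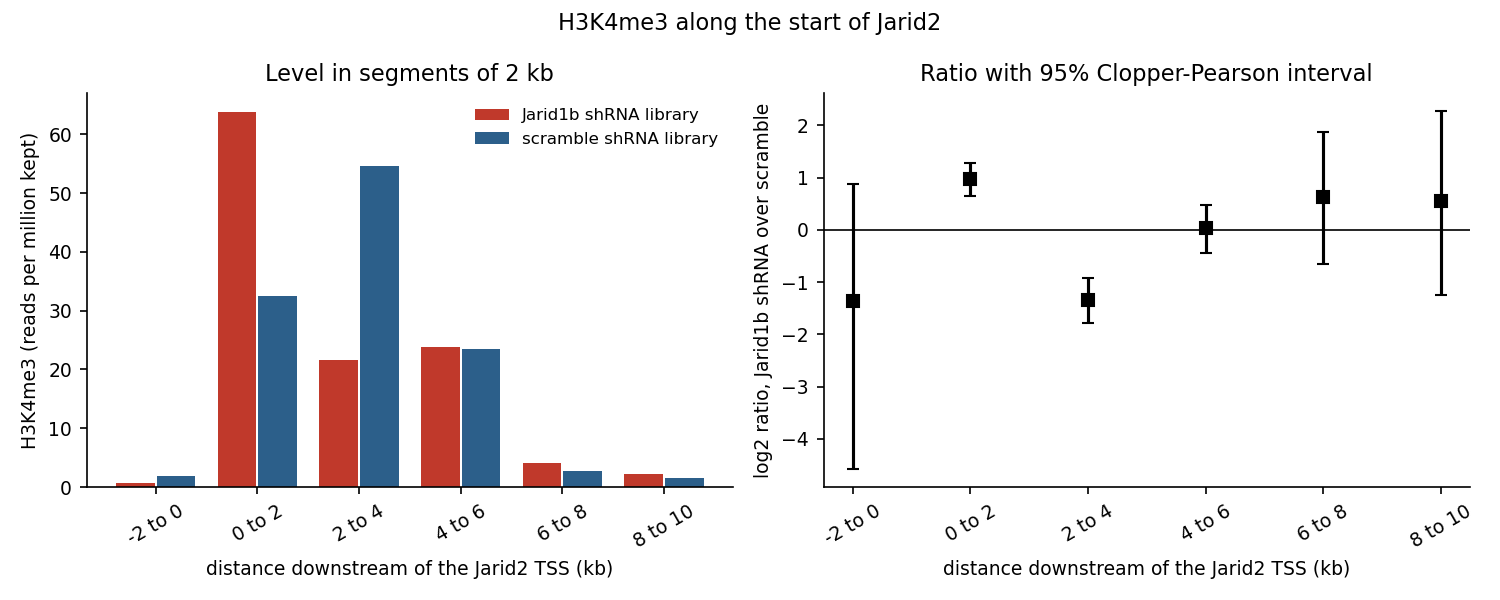
H3K4me3 in segments of 2 kb along the start of Jarid2, with distance from the gene-level TSS in kb on the horizontal axis. Left, RPM in the knockdown (red) and scramble (blue) library. Right, log2 ratio of knockdown over scramble with 95% Clopper-Pearson intervals. The ratio is 0.97 in the segment from 0 to 2 kb and -1.34 in the segment from 2 to 4 kb.

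At the other genes no alternative start lay in a comparable domain. The alternative starts of Ezh2, 6 in all and between 17331 and 60216 bases downstream, held 2 reads or fewer in either H3K4me3 library. At Mtf2 a protein-coding start 7241 bases downstream held 12 knockdown and 37 scramble reads, a log2 ratio of -0.66 (-1.73 to 0.32) that spans 0. At Phf19 a start 9119 bases downstream held 10 knockdown and 6 scramble reads.

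Jarid1b was read next, in the 2 libraries made with its antibody. Of the 8 promoters, 2 were enriched in both libraries, Suz12 and Jarid2, where 7.97% of all promoters were. Library 1 alone called 4 of the 8 (Suz12, Eed, Rbbp4 and Jarid2) against 26.8% of all promoters, and library 2 alone called 2 against 10.7%. The numbers of reads were small. Suz12 had 13 and 9 reads in its window of 2000 bases, which is 3.25-fold over the expected reads in library 1 (1.73 to 5.56, adjusted p = 0.00227) and 7.19-fold in library 2 (3.29 to 13.6, adjusted p = 0.0004, both exact Poisson tests). Jarid2 had 17 and 8 reads, 3.40-fold (1.98 to 5.44, adjusted p = 0.00026) and 3.48-fold (1.502 to 6.85, adjusted p = 0.0277) by the same exact test. Of these Jarid2 reads, 15 of 17 and 8 of 8 lay downstream of the gene-level start, on the side of the CpG-rich sequence. Eed had 16 and 4 reads, 4.21-fold (2.41 to 6.84) in library 1, where it was called, and 2.50-fold (0.681 to 6.40) in library 2. Rbbp4 had 10 and 4 reads, 2.44-fold (1.17 to 4.49) and 2.35-fold (0.641 to 6.02).

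The other 4 promoters were called in neither library. Ezh2 had 8 and 2 reads (2.36-fold and 1.60-fold), Mtf2 had 10 and 3 (1.89-fold and 2.40-fold), and Phf19 had 12 and 5 (1.60-fold and 1.47-fold). Ezh1 had 9 and 5 reads (1.48-fold and 1.92-fold), against expected reads of 6.1 and 2.6. These were raised only in part by the reads in its exons described below. Of the exons with reads, the local rate took in exon 2 (7 and 5 reads) and exon 3 (5 and 5 reads). Against the genome rate alone Ezh1 stood at 2.65-fold and 3.99-fold and Phf19 at 3.54-fold and 3.99-fold, and both were then called in both libraries. The intervals of all 8 promoters overlapped within each library, so no order among them can be read. The median over the 8 was 2.40-fold in library 1 and 2.37-fold in library 2, close to the 2.05-fold and 2.08-fold of all promoters compared for H3K4me3. Of the 40 reads that library 2 placed in the 8 windows, 12 were also in library 1. In background bins the Jarid1b reads of library 1 went from 0.436 per kb in the lowest to 5.94 per kb in the highest of 14 classes of GC content. Against background bins of the same GC content Suz12 stood at 1.18-fold and 2.09-fold and Jarid2 at 2.18-fold and 2.62-fold, and none of the 8 was called.

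**Figure D4:**
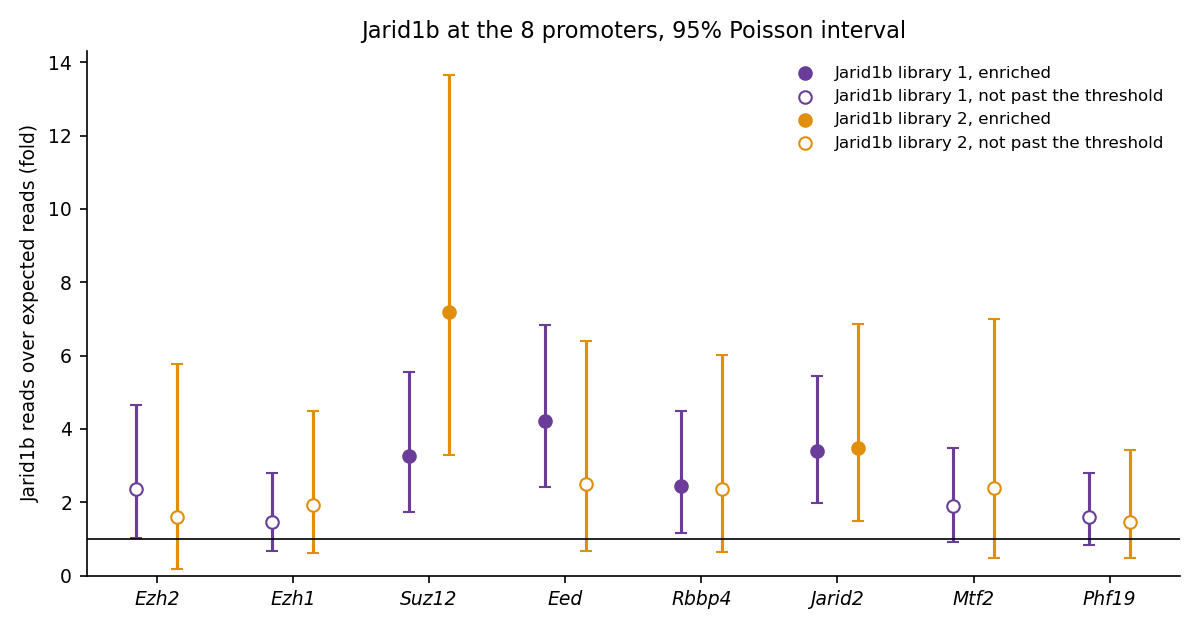
Jarid1b reads over expected reads at the 8 PRC2 promoters in library 1 (purple) and library 2 (orange), with 95% Poisson intervals. Filled points passed the Poisson test at an adjusted p of 0.05, open points did not, and the line at 1 marks the expected reads. Suz12 and Jarid2 are filled in both libraries.

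Outside the promoters, 2 places within these genes stood out, both chosen after their values were seen. The first was the coding exons of Ezh1. In Jarid1b library 1 its coding exons held 216 reads, or 92.8 per kb (80.9 to 106), beside 67 reads or 2.36 per kb in its introns and 13 reads in its untranslated exons. In library 2 they held 88 reads, or 37.8 per kb (30.3 to 46.6), beside 21 intron reads or 0.741 per kb and 3 in untranslated exons. The knockdown H3K4me3 library had 1 read and the scramble H3K4me3 library 3 reads in the same exons. Reads were assigned by their 5′ end, from 1 kb inside the start on. The density of coding exons was 39.1 and 50.1 times that of introns in the 2 Jarid1b libraries, with 0.5 reads added to each count, which ranked Ezh1 at place 1 and place 7 of 13219 genes, where the median gene had 1.64 and 1.87. Only 10 of these genes passed 10-fold in both libraries. No other PRC2 gene passed 4-fold in either Jarid1b library.

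Of the 20 coding exons, exons 2 to 15 (1920 bases) all held reads in both Jarid1b libraries, with 112.5 per kb in library 1 and 45.8 per kb in library 2. Exons 16 to 20 (402 bases) held 0 reads in every library, which at a limit of 3 counts allows 7.46 reads per kb (95% Poisson upper bound 9.18). As deposited, 88.1% of the reads of library 1 that touched a coding exon lay within it to 4 bases, and 90% of those of library 2. With minus-strand rows moved 1 read length to the right, an alternative chosen after seeing the data, these shares were 98.2% and 98.9%. In library 1, 99 of these reads were on the plus and 117 on the minus strand, and in library 2 these numbers were 36 and 52. Of the 88 reads of library 2, 21 were also in library 1. Exon 8, with 34 and 11 reads, and exon 16, with 0 and 0, are printed below as examples of a covered and an uncovered coding exon. They are at chr11:101069416-101069619 and chr11:101056180-101056315 (mm9, minus strand), with the exon in capitals and 20 bases of intron on either side in lower case.
Ezh1 exon 8: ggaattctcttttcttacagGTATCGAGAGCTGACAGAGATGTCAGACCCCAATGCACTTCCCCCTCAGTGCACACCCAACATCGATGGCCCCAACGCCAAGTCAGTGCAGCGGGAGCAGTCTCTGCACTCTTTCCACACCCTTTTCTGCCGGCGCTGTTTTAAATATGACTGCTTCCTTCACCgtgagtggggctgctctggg
Ezh1 exon 16: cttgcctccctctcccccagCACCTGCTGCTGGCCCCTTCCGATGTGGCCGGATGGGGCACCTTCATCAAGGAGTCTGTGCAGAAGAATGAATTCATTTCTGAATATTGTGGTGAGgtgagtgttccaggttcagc
The source of these reads was not tested, and the H3K4me3 libraries did not hold them. The exon reads lie outside the promoter window of Ezh1, 9100 bases or more from its start, and touch the promoter values only through the local rate.

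**Figure D5:**
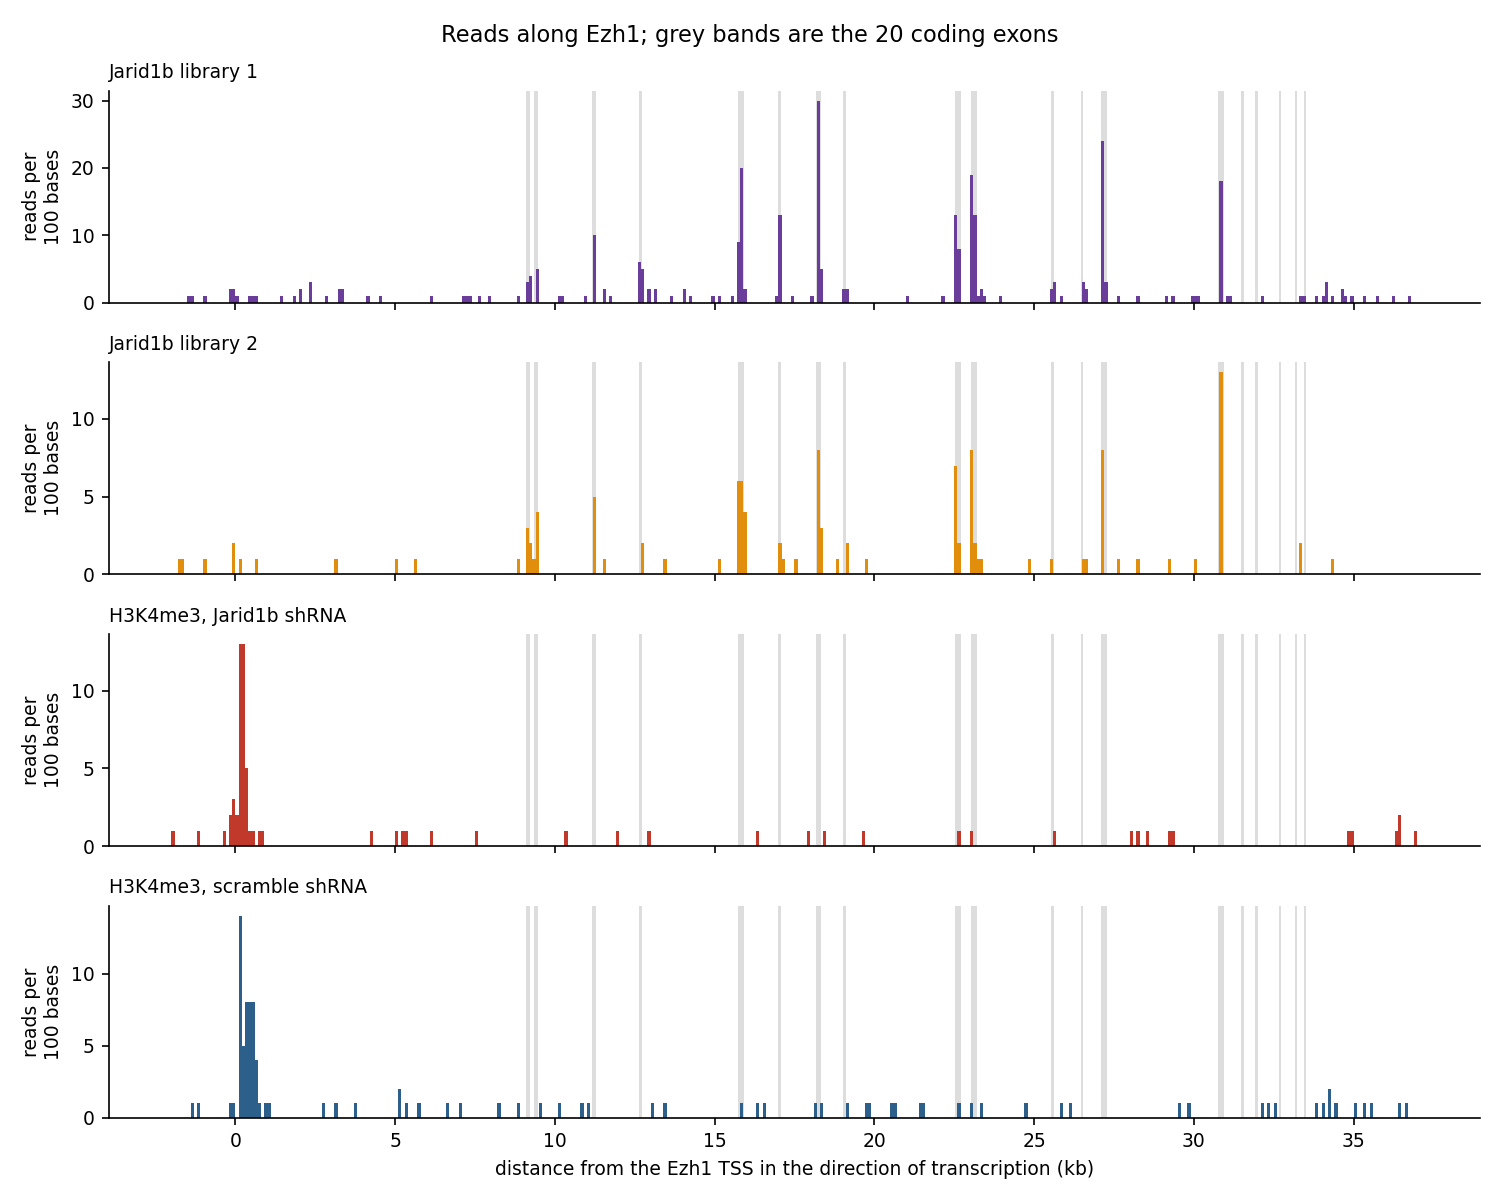
Reads in classes of 100 bases along Ezh1 in the 2 Jarid1b and the 2 H3K4me3 libraries, by distance from the TSS in kb. The grey bands are the 20 coding exons. Jarid1b reads stand on the bands from 9 to 31 kb and are missing from the last 5, while H3K4me3 reads stand at the start.

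The second place was inside an intron of Jarid2, between bases 44964001 and 44966000 of chromosome 13, beginning 139158 bases from the gene-level start. Its first kb held 50 and 18 Jarid1b reads and its second kb 121 and 78, and all 4 of these counts passed the Poisson test over 1 kb bins. The H3K4me3 libraries held 7 knockdown and 16 scramble reads in the first kb and 14 and 34 in the second, above their intron means of 2.30 and 5.43 reads per kb in this gene.

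The rest of the Polycomb machinery was read in the same way. Of 6 further PRC2 genes, all compared, 3 were called higher in the knockdown library and 0 lower, with a median log2 ratio of 0.96, where 24% of all promoters were called higher and 2.37% lower. Those called higher were E130012A19Rik (also known as Epop, 1.29, 0.97 to 1.62), Lcor (1.38, 0.98 to 1.78) and Lcorl (1.38, 0.95 to 1.81). None of the 6 was Jarid1b enriched in both libraries, where 7.97% of all promoters were. With median scaling 0 of the 6 were called higher. Of 18 genes of Polycomb repressive complex 1, which ubiquitinates histone H2A and reads the PRC2 mark, 17 were compared, 9 were called higher and 1 lower, with a median of 1.06. With median scaling 5 were called higher and 1 lower. The genes named next were called with the main scaling. Among the E3 ligase core, Ring1 (1.15), Rnf2 (1.24) and Bmi1 (2.80, 2.24 to 3.39) were called higher. None of the Pcgf genes compared, the relatives of Bmi1, was called in either direction, and Pcgf5 (0 knockdown and 2 scramble reads) was not compared. The intervals of Pcgf2 (0.83, 0.43 to 1.23) and Pcgf6 (0.51, 0.04 to 0.97) lay above 0, and those of Pcgf1 and Pcgf3 spanned 0. Also among the genes called higher were the chromobox readers Cbx2 (1.06) and Cbx8 (1.97), Phc2 (1.69), Rybp (1.12) and Yaf2 (1.94), whereas Cbx7, the chromobox protein typical of stem cells, was called lower at -1.26 (-1.65 to -0.88). Jarid1b was enriched in both libraries at Cbx8, Phc3, Bmi1 and Yaf2, 4 of the 18, beside the same 7.97%. The shares called higher, 3 of 6 and 9 of 17, stand beside 2 of 8 for the PRC2 genes above and 24% of all promoters, and no test of the difference between the lists was made. No values matched for GC content are given for these 2 lists.

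Promoters were also ranked by how near they stood to the mean profile of the 8 genes over the 4 libraries, by Euclidean distance of log2(RPM + 0.5). Lass5 and Smcr7l were among the 3 nearest, at distances of 0.122 and 0.131. Lass5 had 80 knockdown, 126 scramble and 12 and 5 Jarid1b reads, and its log2 ratio was 0.31.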

How the data were processed

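The deposited files hold aligned reads, 1 row per read, and a score column that is 0 in every row, so the deposited scores were not used. Bowtie placed them on mm9, per the labels' protocols; the sources used here give no version of it. The rows still repeat positions, so the later steps those protocols name (1 match per position, MACS peaks, IgG normalization) were not yet applied, and no IgG library was used here. In the Jarid1b libraries, 235 and 37 minus-strand rows touch unsequenced bases (N) of the assembly as deposited, against 0 and 0 once moved 1 read length to the right, so those rows appear displaced. No minus-strand H3K4me3 row touches them as deposited. Coordinates were kept as deposited, with the move as an alternative.

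From the rows, 1 read was kept per position and strand on chromosomes 1 to 19, X and Y, which removed 7.56% of knockdown, 31.5% of scramble, 15.3% of Jarid1b library 1 and 7.69% of library 2 rows. The 5′ ends were shifted 75 bases towards the fragment centre and counted in windows of 1 kb on either side of each gene-level TSS. Enrichment was tested within a library (exact one-sided Poisson test, Benjamini-Hochberg over 22367 promoters, threshold 0.05). Jarid1b was called where both libraries passed. Ratios used promoters enriched in either H3K4me3 library with at least 20 reads over both. Sequence came from the NCBIM37 assembly. Scripts used Python 3.11.15, NumPy 2.4.6, SciPy 1.17.1 and pandas 2.3.3 and were tested on simulated data.

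The 2 Jarid1b files agree within sampling noise over 12603 promoters (chi-square per degree of freedom 0.996) and shared fragments, so they count as 1 sample. The members, the gene lists and the naming rule (the 8 genes, Kdm5b, other Polycomb genes called, the 3 nearest profiles, genes sharing a promoter) were chosen with earlier results of these data known. A few genes named by this rule are not reported here. Stem cell, fibroblast, neural, endoderm and blood markers were read as a check. Sox1, Map2 and Spi1 were not matched. Alternatives changed the shift, repeats, window, background rate, scaling, GC content, filters, fold and start site.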

Additional observations from a re-analysis of the deposited data

How the results depend on the processing

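All 8 promoters kept an H3K4me3 call in both libraries under the 6 alternatives run for it. Members called higher numbered 2, and became 0 with the median of all promoters set to 0 (Eed and Mtf2, 2, were then called lower), 1 with the GC trend over promoters removed, 0 with background bins of the same GC content set to 0 (1 lower) and 4 at 1.5-fold (2 lower). Scaling to background bins gave 3, with Ezh2 added. With 500 bases on each side 1 member, Mtf2, was called lower, and the 2 called higher were Phf19 and Suz12 (1.08) in place of Jarid2 (0.59). Over all promoters, 3184 higher and 315 lower became 1594 and 1193 with median scaling, 5078 and 1055 at 1.5-fold and 956 and 513 with background bins of the same GC content. The number lower became 122 with scaling to background bins and 54 with the GC trend removed. The median of all promoters, 0.41, moved to 0.65 with scaling to background bins, 0.58 with every deposited row and -0.03 with background bins of the same GC content, where the median of the 8 genes was -0.21. The ratio of Jarid2 turned to -0.019 over all annotated starts and -0.021 over its enriched region. Eed and Mtf2 stayed below 0 in 11 of 11 settings (-1.38 to -0.56 and -1.26 to -0.24), and Ezh2, Ezh1 and Phf19 above 0 in 11 of 11. Suz12 was positive in 8 and Rbbp4 in 3 of 11. Members with Jarid1b in both libraries numbered 2, and 1 with 500 bases on each side, 4 with the genome rate alone, 1 at a threshold of 0.01, 0 with background bins of the same GC content and 5 on pooled reads. The pooled reads count a fragment shared by the 2 libraries in each of them, so that test has fewer independent reads than it assumes. Leaving out 1 Jarid1b library gave 2 to 4. Moving minus-strand rows left it at 2. The cause of these changes was not tested. The settings of the GC bins set to 0, the moved rows and the enriched region were chosen after seeing the data. No paired analysis was possible because each H3K4me3 condition has 1 library. Member windows held 2 to 17 Jarid1b reads and 36 to 289 H3K4me3 reads, which limits single Jarid1b values.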
